A study of Caenorhabditis elegans with 4 samples.

Results

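F-box B genes are one class of the F-box genes of *C. elegans*, and their symbols begin with *fbxb*. F-box proteins are the substrate-binding subunits of SCF ubiquitin ligases. The F-box motif binds a SKP1-related protein (SKR in the worm), which connects the F-box protein to a cullin scaffold, and the bound substrate is marked with ubiquitin. The worm genome holds an unusually large number of F-box genes, many of them in arrays of neighbouring copies on chromosome arms, and for most F-box B proteins the substrate is not known.

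All genes with an *fbxb* symbol in the WBcel235 annotation were taken, 104 of the 46745 sequence names in the count table, and each of the 104 was listed there. The symbols define the members, but the class itself was chosen by the food fold changes of these same samples, so the food values of its members are a description of these samples. Calls from the fit over all genes are counted for the members in that sense only, and no p-value is given for a member. The RNA came from pooled whole animals of the wild-type Bristol strain N2, with 2 samples from animals given *E. coli* OP50, the standard laboratory food, and 2 from animals given *L. paracasei* subsp. *paracasei* 2004. Feeding lasted 3 days and began in young adults, 3 days after hatching. The labels give S basal medium for this culture and the methods give NGM plates. Nothing states whether the samples of a food came from separate cultures, so the spread between them may be technical. In RNA from whole animals, fewer cells of a type and less RNA per cell cannot be told apart.

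The 4 libraries held 44548901 to 50504029 estimated counts. Expression is given as CPM, the count divided by the library's total and scaled to a total of 1000000. A gene at 0 counts could hold up to 3 counts (0.0594 to 0.0673 CPM) by counting error alone. A gene was tested with edgeR if it reached 0.5 CPM in at least 2 samples, and it was called higher or lower if the adjusted p-value was under 0.1 with more than a 2-fold difference. Positive log2 fold changes mean higher expression on strain 2004, and their standard error is given after ±. Across markers fixed for other tissues, 5 of 6 body muscle genes were called lower on strain 2004, and their summed level was 1489 and 1373 CPM with OP50 and 511 and 445 CPM with 2004. The neuronal markers summed to 348 and 355 CPM and to 269 and 273 CPM, with 2 of 8 called lower. The early embryo markers summed to 23.2 and 27.5 CPM and to 43.5 and 32.2 CPM. Of the 7 tested, 3 were called higher, among them *tbx-38*, which passed the filter only through its 2004 samples. *med-1* and *hlh-26* were at 0 counts in every library. The germline and oocyte markers summed to 19830 to 22678 CPM over the 4 libraries. Of these 18 genes 1 (*perm-4*) was called lower, and their median log2 fold change was 0.25. For sperm, 5 of the 12 markers were at 0 counts in every library. The intestinal markers summed to 87338 and 103594 CPM with OP50 and to 70046 and 80594 CPM with 2004. Of these 10 genes 2 were called higher and 1 lower, and their median log2 fold change was 0.34. The gene called lower, *vit-5*, holds much of that sum, with 27664 and 37097 CPM with OP50 and 12321 and 14715 CPM with 2004. The 6 epidermal markers summed to 575 and 514 CPM and to 388 and 402 CPM, with 0 of the 2 tested called by edgeR or DESeq2 and both at an unadjusted p under 0.05, 1 in each direction. Of all tested genes, 7.55% were called higher and 14.8% lower. Among those with a mean under 5 CPM the shares were 13.2% and 24.5%. The part of the marker shifts in the F-box B values was not tested.

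The F-box B genes were compact and alike in structure. Of the 104 genes, 83 had 2 exons and 102 had 1 listed transcript, and the median coding length was 948 bases (198 to 1215). Of the 58 genes on chromosome II, 57 started in its first 5000000 bases. Genes whose starts lay within 50 kb of each other were joined, which gave 9 clusters of at least 4 genes with 68 members in all. The clusters are named here by their chromosome and their order on it. Ia (I:14083045-14096348) and Ib (I:14283470-14299780) hold 4 genes each. IIa (II:999162-1049949) holds 6, IIb (II:1536231-1571132) 9, IIc (II:1647908-1863782) 20, IId (II:2758772-2775004) 5 and IIe (II:3746428-3793436) 4. IIIa (III:140072-146469) holds 4 genes and Va (V:19233769-19330757) holds 12. The other 36 members lay alone or in smaller groups.

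Expression of the class was low on OP50 and higher on strain 2004. Summed over its 104 genes, it reached 45.8 and 56.8 CPM in the OP50 samples and 148 and 187 CPM in the 2004 samples. Both 2004 samples thus lay above both OP50 samples, and the ratio of the means was 3.26. The median member had 10.5 and 16 counts with OP50 and 38.5 and 51.5 counts with 2004. Members with no count at all numbered 27 and 13 in the OP50 libraries and 5 and 3 in the 2004 libraries.

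Of the 104 genes, 69 passed the filter on low counts. Among these, edgeR called 53 (76.8%) higher on strain 2004 and 0 lower, where 7.55% of all 12505 tested genes were called higher and 14.8% lower. No member was lower at an unadjusted p under 0.05, and with DESeq2 the members called numbered 45 higher and 0 lower, where that tool called 6.89% of all tested genes higher. Among all tested genes with a mean under 5 CPM, where most members lie, 13.2% were called higher and 24.5% lower. The log2 fold changes of the 69 genes ran from -0.67 to 3.99 with a median of 1.64, and the median of all tested genes was -0.03. The foods separated in full, with each 2004 sample above each OP50 sample, in 67 of these 69, as in 37.5% of all tested genes. After TMM scaling these were 65 genes and 36.1%. In the sample-by-sample plot the exceptions on the CPM scale are *fbxb-26* and *fbxb-97*.

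**Figure D1:**
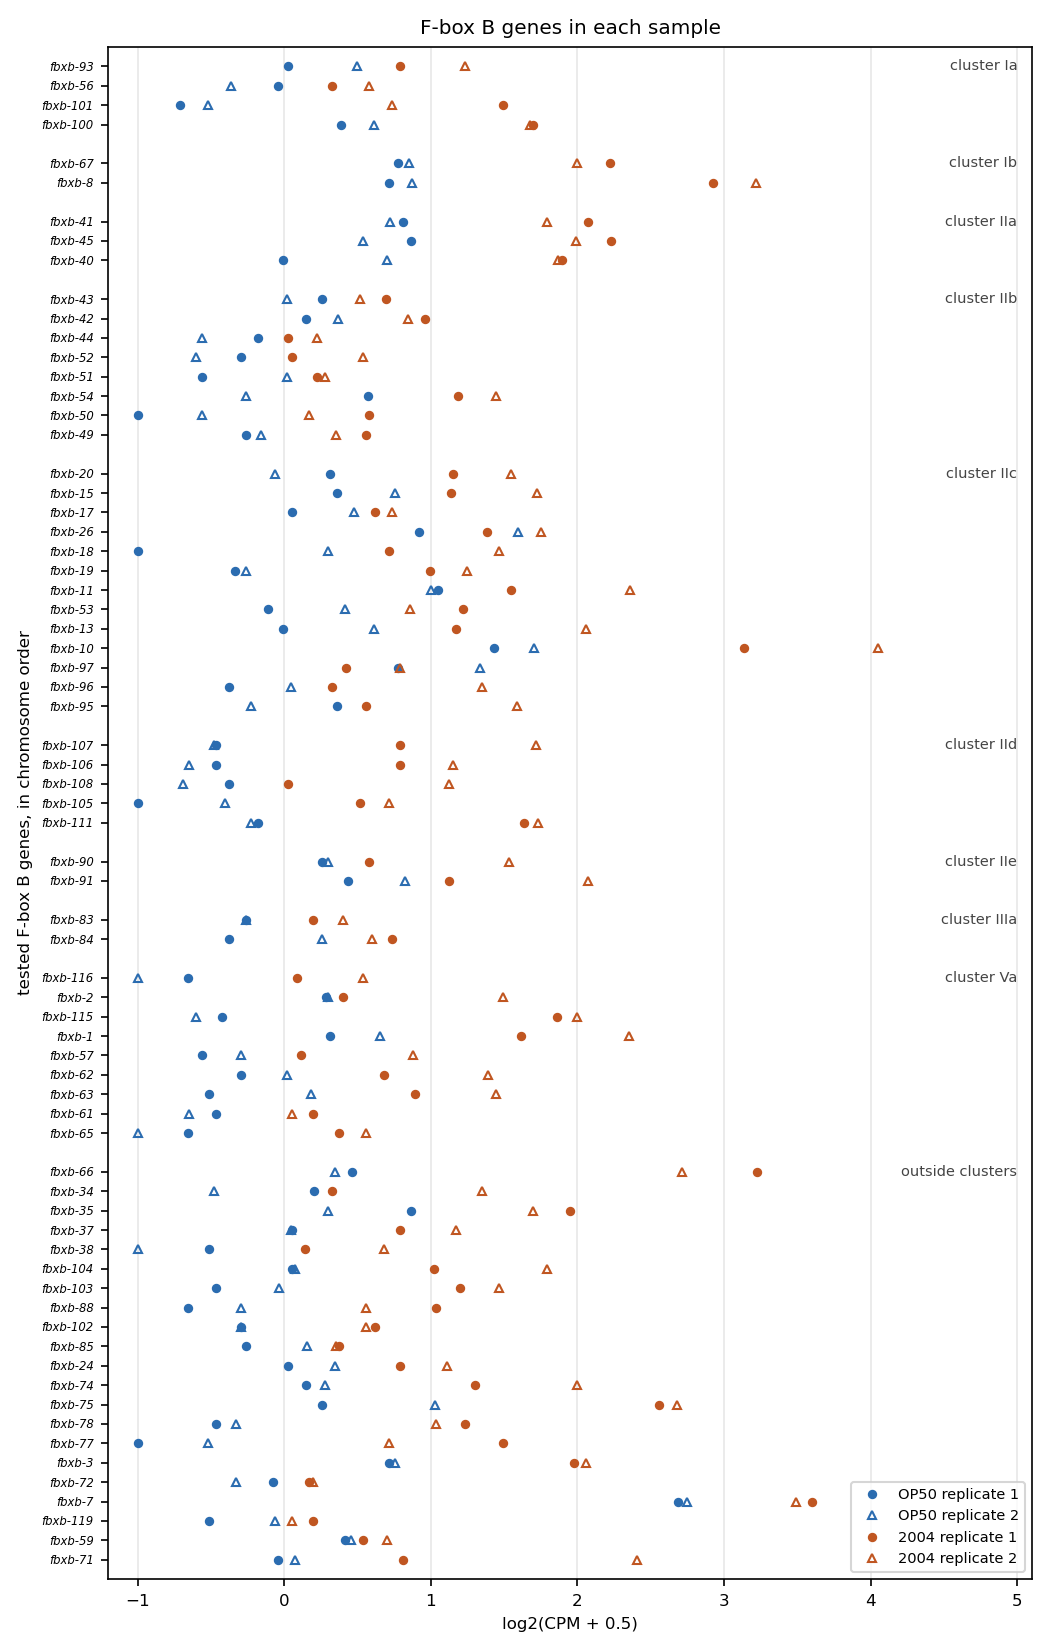
The level of each of the 69 tested F-box B genes in each sample, as log2(CPM + 0.5), with genes in chromosome order within their cluster. Blue marks are OP50, orange marks are 2004, circles are replicate 1 and triangles replicate 2. In 67 of the 69 rows both orange marks lie to the right of both blue marks. In 26 of these rows the filter on low counts itself fixed that order.

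The filter favoured genes that are high on strain 2004. Of the 69 tested members, 28 reached 0.5 CPM in both OP50 samples, 15 in 1 OP50 sample and 26 in neither, so the last 26 passed only through their 2004 samples. In those 26 the filter itself placed each 2004 sample above each OP50 sample on the CPM scale, so their separation is no result. The genes called higher numbered 20, 12 and 21 in the groups in this order, and the shares of all tested genes in such groups were not counted. Where both OP50 samples reached 0.5 CPM, the median log2 fold change was 1.37. Without 2004 replicate 2 the number of members called higher fell from 53 to 35. When the fold was tested directly against 2-fold with glmTreat, 19 members were called higher, where 2.66% of all tested genes were.

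**Figure D2:**
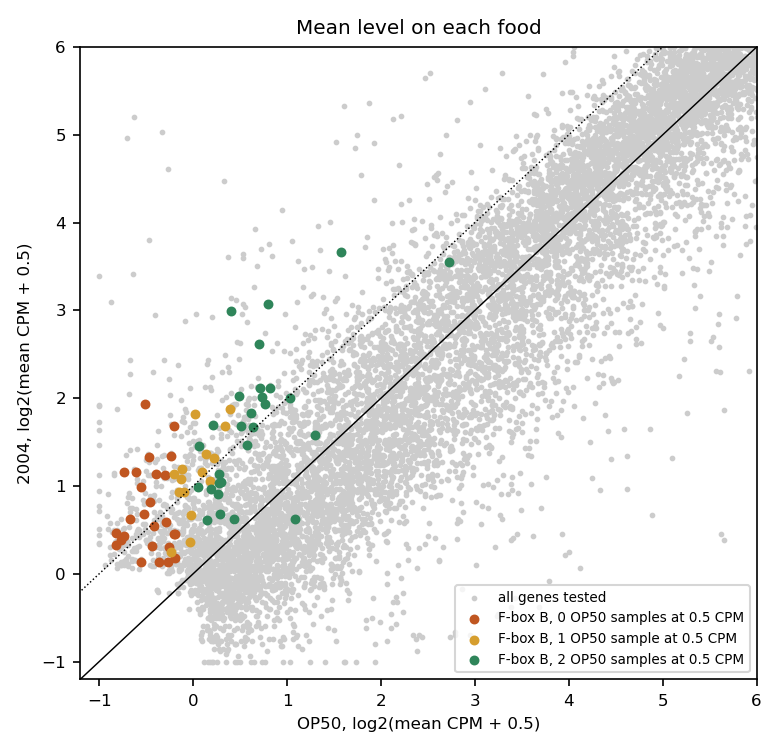
Mean level on each food as log2(mean CPM + 0.5) for all tested genes (grey) and for the 69 tested F-box B genes, coloured by how many OP50 samples reached 0.5 CPM. The solid line marks equal levels, the dotted line a difference of 1 on this scale, and both axes stop at 6. Most F-box B genes lie near the left edge, and 68 of the 69 lie above the solid line.

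Per kilobase of exon, *fbxb-7* and *fbxb-10* had the highest levels of the class. *fbxb-7* (Y20C6A.2, V:17377406-17379233) lies outside the clusters. It had 5.95 and 6.22 CPM in the OP50 samples and 11.6 and 10.7 CPM in the 2004 samples, and it held 7.89% of the summed mean level of the class. It was the highest member in both OP50 samples, and its log2 fold change of 0.82 ± 0.22 was below the 2-fold threshold. *fbxb-10* (T08E11.6, II:1817271-1818400, cluster IIc) had 2.20 and 2.75 CPM with OP50 and 8.31 and 16.1 CPM with 2004. The 2004 samples did not overlap the OP50 samples but differed from each other, and the log2 fold change was 2.27 ± 0.35. Per kilobase of exon its mean level was 2.303 CPM on OP50 and 11.3 CPM on strain 2004, beside 5.68 and 10.4 CPM for *fbxb-7*. The order of these genes per kilobase was thus reversed between the foods, and on strain 2004 the levels of *fbxb-7* lay between the replicates of *fbxb-10*.

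The next most abundant members were *fbxb-8*, *fbxb-66* and *fbxb-75*. *fbxb-8* (F49B2.1, cluster Ib) had 1.14 and 1.33 CPM with OP50 and 7.10 and 8.78 CPM with 2004, a log2 fold change of 2.64 ± 0.30. *fbxb-66* (Y40B1B.3, I:13423997-13425148) stands alone on chromosome I, with 39 counts in each OP50 library and 410 and 280 counts in the 2004 libraries. Its log2 fold change was 3.11 ± 0.33, the largest among these abundant members, and its foods did not overlap. *fbxb-75* (R08C7.13, IV:4439824-4441177) had 0.696 and 1.54 CPM with OP50 and 5.39 and 5.89 CPM with 2004, a log2 fold change of 2.297 ± 0.37. Its neighbour *fbxb-74*, 27 and 36 counts with OP50 and 91 and 162 with 2004, had a log2 fold change of 2.01 ± 0.45. The remaining genes among the 10 most abundant were *fbxb-67*, *fbxb-11*, *fbxb-45*, *fbxb-3* and *fbxb-41*, with log2 fold changes between 1.16 (*fbxb-11*) and 1.69 (*fbxb-45*). The value of *fbxb-11* was 0.55 without 2004 replicate 2, and its call was lost. The 10 genes together held 36.8% of the summed mean level.

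Among members with a mean of at least 1 CPM, *fbxb-115* (T26H2.2, V:19238421-19240229, cluster Va) had the largest log2 fold change. It had 11 and 8 counts in the OP50 libraries and 145 and 162 in the 2004 libraries, a log2 fold change of 3.97 ± 0.47. *fbxb-107* of cluster IId followed with 3.14 ± 0.59, then *fbxb-66*, *fbxb-111* and *fbxb-8*. Of these, *fbxb-107*, *fbxb-111* and *fbxb-115* passed the filter only through their 2004 samples. *fbxb-77* (Y17G9B.7, chromosome IV), named after its values were seen, had a mean under 1 CPM and the largest fitted value of all, 3.99 ± 0.84, with 0 and 10 counts on OP50 and 107 and 53 on strain 2004.

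Among members with a mean of at least 1 CPM, the lowest log2 fold changes were those of *fbxb-97*, *fbxb-26*, *fbxb-7*, *fbxb-42* and *fbxb-2*. *fbxb-97* (C52E2.6, II:1846977-1848161, cluster IIc) was the 1 tested member with a log2 fold change below 0. It had 1.21 and 2.02 CPM with OP50 and 0.841 and 1.23 CPM with 2004, so the foods overlapped, and the log2 fold change was -0.67 ± 0.45. *fbxb-26*, in the same cluster, had 62 and 127 counts with OP50 and 98 and 133 with 2004, and its foods overlapped as well (0.33 ± 0.38). *fbxb-42* had a log2 fold change of 0.92 ± 0.44. *fbxb-2* had 32 and 37 counts with OP50, 38 and 107 with 2004, and the log2 fold change of 1.08 ± 0.56 was 0.08 without 2004 replicate 2 and 1.68 without 2004 replicate 1.

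The 35 members that were not tested had at most 60 counts in any library. Their summed level was 1.91 and 4.95 CPM in the OP50 samples and 8.78 and 12.04 CPM in the 2004 samples, a ratio of 3.04, beside 3.28 for the 69 tested genes. In 19 of the 35 the lower 2004 sample was above the higher OP50 sample. The share among all genes that failed the filter was not counted, so nothing is read from this number. 5 of them, *fbxb-9*, *fbxb-29*, *fbxb-30*, *fbxb-48* and *fbxb-76*, had 0 counts in both OP50 libraries and at least 5 counts in each 2004 library. The mean 2004 level of *fbxb-30* (26 and 19 counts) was 7.21 times the floor of 3 counts in the shallower OP50 library. For the other 4 this ratio was 2.24 to 3.52. It leaves out the counting error of the 2004 samples, so it is no lower bound on the fold. *fbxb-39* had 4 counts in 1 2004 library only, and *fbxb-58* and *fbxb-114*, both on the X chromosome, had 0 counts in every library. A further 17 members had 0 counts in 1 OP50 library and at most 13 in the other, with 0 to 49 counts in the 2004 libraries. They were *fbxb-6*, *fbxb-16*, *fbxb-31*, *fbxb-33*, *fbxb-46*, *fbxb-47*, *fbxb-55*, *fbxb-60*, *fbxb-64*, *fbxb-70*, *fbxb-79*, *fbxb-81*, *fbxb-87*, *fbxb-99*, *fbxb-112*, *fbxb-117* and *fbxb-118*. The last 10, *fbxb-5*, *fbxb-14*, *fbxb-21*, *fbxb-22*, *fbxb-25*, *fbxb-68*, *fbxb-69*, *fbxb-82*, *fbxb-92* and *fbxb-98*, had 4 to 33 counts with OP50 and 1 to 60 with 2004. Mean CPM was lower on strain 2004 in 4 of the 104 genes, namely *fbxb-97* and the untested *fbxb-14*, *fbxb-16* and *fbxb-92*.

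Members inside and outside the clusters had close medians. Of the 48 tested genes in the 9 clusters, 37 were called higher with a median log2 fold change of 1.62. Of the 21 tested genes outside them, 16 were called higher with a median of 1.65. The summed level was higher on strain 2004 by a ratio of 3.25 in the clusters and 3.29 outside. By chromosome, members called higher numbered 6 of 7 tested on I, 32 of 39 on II, 1 of 4 on III, 5 of 5 on IV, 8 of 13 on V and 1 of 1 on X.

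**Figure D3:**
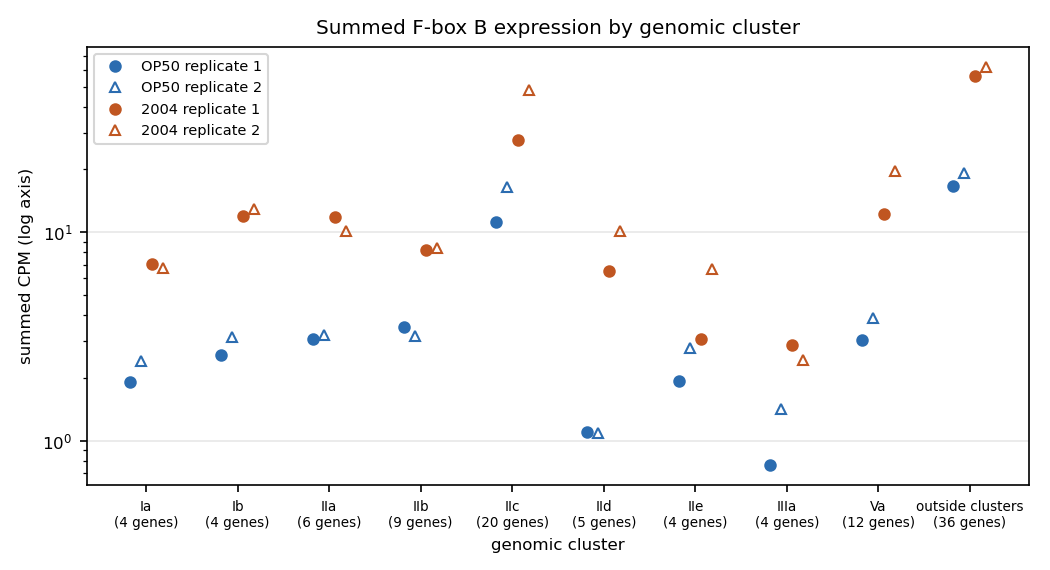
Summed CPM of the F-box B genes of each genomic cluster and of the members outside the clusters, on a log axis, with 1 mark per sample (blue OP50, orange 2004, circles replicate 1, triangles replicate 2). In all 10 columns both orange marks lie above both blue marks, and the gap is smallest in IIe, where OP50 replicate 2 (2.79 CPM) is close to 2004 replicate 1 (3.06 CPM).

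The medians of the 9 clusters lay between 1.10 and 2.92, and the differences between clusters were not tested. That of cluster IId was 2.92 over its 5 members, all of which passed the filter only through their 2004 samples. With no filter the median was 2.96 in IId and 3.04 in IIa. The summed level of IId went from 1.10 and 1.09 CPM to 6.52 and 10.2 CPM. In order along the chromosome, *fbxb-107* had 10 and 11 counts with OP50 and 57 and 129 with 2004, *fbxb-106* had 10 and 7 and then 57 and 80, and *fbxb-108* had 12 and 6 and then 24 and 78. *fbxb-105* had 0 and 13 counts and then 43 and 53, and *fbxb-111* had 17 and 18 counts and then 121 and 131. No OP50 sample reached 0.5 CPM in these genes, so the filter itself placed their 2004 samples above their OP50 samples. Clusters Ib and Va had medians of 2.09 (2 tested genes) and 1.95 (9 tested genes). In Va, 8 of the 9 tested genes were called, and the values spread from 1.08 (*fbxb-2*) to 3.97 (*fbxb-115*), although these genes are direct neighbours. Of the 9, *fbxb-57*, *fbxb-61*, *fbxb-65*, *fbxb-115* and *fbxb-116* passed the filter only through their 2004 samples. The most abundant member of Va, *fbxb-1*, had 0.741 and 1.07 CPM with OP50 and 2.57 and 4.60 CPM with 2004 (1.95 ± 0.42).

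Cluster IIa had a median of 1.69 over 3 tested genes, *fbxb-41*, *fbxb-45* and *fbxb-40*, with 1.41, 1.69 and 1.93. *fbxb-45* had 59 and 48 counts with OP50 and 194 and 161 with 2004, and the samples of each food were close to each other. In cluster IIc, the largest with 20 genes, 10 of 13 tested genes were called higher, with a median of 1.56 and a range from -0.67 to 2.37. The 3 that were not called were *fbxb-17* (24 and 45 counts with OP50, 48 and 54 with 2004), *fbxb-26* and *fbxb-97*. *fbxb-18* and *fbxb-19* of IIc share a stretch on 1 strand, and reads there could have gone to either gene. *fbxb-18* had 0 and 37 counts with OP50 and 53 and 105 with 2004, and *fbxb-19* had 13 and 17 and then 69 and 87.

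Lower medians were found in clusters Ia, IIe, IIb and IIIa, with values of 1.34, 1.27, 1.11 and 1.10. In Ia the values were uneven: *fbxb-101* had 5 and 10 counts with OP50 and 107 and 54 with 2004 (3.39 ± 0.58). It passed the filter only through its 2004 samples. The most abundant member, *fbxb-100*, had 36 and 52 and then 127 and 125 (1.52 ± 0.37). In IIb, 4 of 8 tested genes were called, and *fbxb-54* had 44 and 17 counts with OP50 and 82 and 103 with 2004 (1.53 ± 0.56). That call was lost without OP50 replicate 2 (0.89). The other called genes of IIb were *fbxb-49*, *fbxb-50* and *fbxb-52*, and *fbxb-50* had 0 and 9 counts with OP50 and 46 and 29 with 2004. All of these other called genes passed the filter only through their 2004 samples. The uncalled neighbours *fbxb-42*, *fbxb-43*, *fbxb-44* and *fbxb-51* lay between 0.70 and 1.03. In IIIa edgeR called 0 of the 2 tested genes, with 0 at an unadjusted p under 0.05 and 0 called by DESeq2, and limma-voom called *fbxb-84*, as edgeR did without OP50 replicate 2 (1.87) and with 10 counts required in every sample (1.13). It had 12 and 35 counts with OP50 and 54 and 47 with 2004 (1.14 ± 0.54). In IIe, *fbxb-91* had 38 and 64 counts with OP50 and 78 and 172 with 2004 (1.32 ± 0.47), a call lost without 2004 replicate 2 (0.58). The median of IIe was 0.48 without 2004 replicate 2 and 1.79 without 2004 replicate 1, and that of IIc was 0.82 without 2004 replicate 2.

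Tested members outside the clusters had log2 fold changes from 0.24 to 3.99. On chromosome IV, *fbxb-77* and *fbxb-78*, which start within 20 kb of each other, had 3.99 ± 0.84 and 2.64 ± 0.49 on the log2 scale. Both passed the filter only through their 2004 samples. *fbxb-78* had 10 and 15 counts with OP50 and 86 and 72 with 2004. *fbxb-3*, on the same chromosome, had a higher level on OP50 than *fbxb-77* and *fbxb-78* had there. Its counts were 51 and 60 with OP50 and rose to 159 and 170 with 2004 (1.56 ± 0.34). On chromosome II, *fbxb-35*, *fbxb-37* and *fbxb-38* lie between clusters IIc and IId. *fbxb-35* had 59 and 37 counts with OP50 and 156 and 127 with 2004 (1.50 ± 0.42), and the foods did not overlap. *fbxb-38* had 9 and 0 counts with OP50 and 28 and 51 with 2004 (3.04 ± 0.96). *fbxb-102*, the 1 member on II outside its first 5000000 bases, had 14 and 16 counts with OP50 and 48 and 45 with 2004 (1.61 ± 0.52). *fbxb-38* and *fbxb-102* also passed the filter only through their 2004 samples. The uncalled members outside the clusters were *fbxb-7*, *fbxb-59*, *fbxb-72*, *fbxb-85* and *fbxb-119*, with log2 fold changes from 0.24 to 0.82. *fbxb-59* had 37 and 44 counts with OP50 and 44 and 52 with 2004, so its foods lay close together. It overlaps *fbxa-113* on the opposite strand, an F-box A gene with 7 and 6 counts with OP50 and 31 and 34 with 2004.

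The 2004 samples differed from each other by cluster. Replicate 2 lay above replicate 1 in 47 of the 69 tested genes. It did so in 17 of the 20 genes of IIc, 10 of the 12 of Va and 5 of the 5 of IId, but in 1 of the 6 genes of IIa. Between the OP50 samples, replicate 2 was the higher in 15 genes of IIc, 7 of Va, 1 of IId and 1 of IIa. These cluster counts include untested members. The share over all tested genes was not counted, so nothing is read from these numbers about the class. *fbxb-71* on the X chromosome, named after its values were seen, had a wide gap, with 58 and 222 counts in the 2004 libraries and 21 and 28 in the OP50 libraries. Its log2 fold change was 2.54 ± 0.62.

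Other genes on the same stretches give values that did not choose the class. Between the first and last member of the 9 clusters lie 93 other protein-coding genes of the table, F-box A and F-box C genes left out, and 43 of them were tested. Of the 43, 14 were called higher and 4 lower, with a median log2 fold change of 0.68, beside 7.55% and 14.8% of all tested genes. Among tested genes with a mean under 5 CPM, 13.2% were called higher and 24.5% lower. Of the neighbours called higher, *math-34*, *sdz-10*, *F21D9.11* and *F55C9.14* passed the filter only through their 2004 samples. They include *sdz* genes (for SKN-1 dependent zygotic transcripts), *math* genes, whose products carry a MATH domain, and *btb* genes, whose products carry a BTB domain. Of the *sdz* genes 2 were called higher and 1 lower of 5 tested, of the *math* genes 1 higher of 7, and of the *btb* genes 2 higher of 5. By the rule on named genes, *C08F1.10* (cluster IIc) and *rcd-1* (cluster IIe) stand out. *C08F1.10* had 5.32 and 6.73 CPM with OP50 and 20.6 and 21.2 CPM with 2004, a log2 fold change of 1.75 ± 0.20 (adjusted p = 0.000115, edgeR). *rcd-1* had 6.71 and 11.8 CPM with OP50 and 1.83 and 2.20 CPM with 2004, and it fell by 2.22 ± 0.31 on the log2 scale (adjusted p = 0.000443, edgeR).

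Some genes between members differed in the opposite direction from most F-box B genes of their cluster. The genes in this paragraph were chosen after their values were seen. In cluster IId, *F08D12.7* lies between *fbxb-108* and *fbxb-105* and had 5.50 and 5.37 CPM with OP50 and 1.53 and 1.42 CPM with 2004. It fell by 1.93 ± 0.30 on the log2 scale (adjusted p = 0.000862, edgeR). *sdz-10* and *sdz-9*, between *fbxb-105* and *fbxb-111*, rose by 3.04 ± 0.55 and 2.05 ± 0.57 (adjusted p = 0.00197 and 0.0168, edgeR). *sdz-10* passed the filter only through its 2004 samples. In cluster Va, *sdz-6* lies between *fbxb-64* and *fbxb-65*. *fbxb-64*, not tested, had 6 and 0 counts with OP50 and 5 and 13 with 2004, so its foods overlapped, and *fbxb-65* had 6 and 0 counts and then 37 and 45. *sdz-6* had 274 and 339 counts in the OP50 libraries and 12 and 0 in the 2004 libraries, a log2 fold change of -5.67 ± 0.67 (adjusted p = 0.000164, edgeR). Its summed neighbours in Va were higher on strain 2004, at 3.03 and 3.88 CPM and then 12.3 and 19.6 CPM. In cluster IIa, *F45D11.5*, beside *fbxb-30*, had 0.696 and 0.535 CPM with OP50 and 2.50 and 7.34 CPM with 2004 (2.97 ± 0.54, adjusted p = 0.00205, edgeR).

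**Figure D4:**
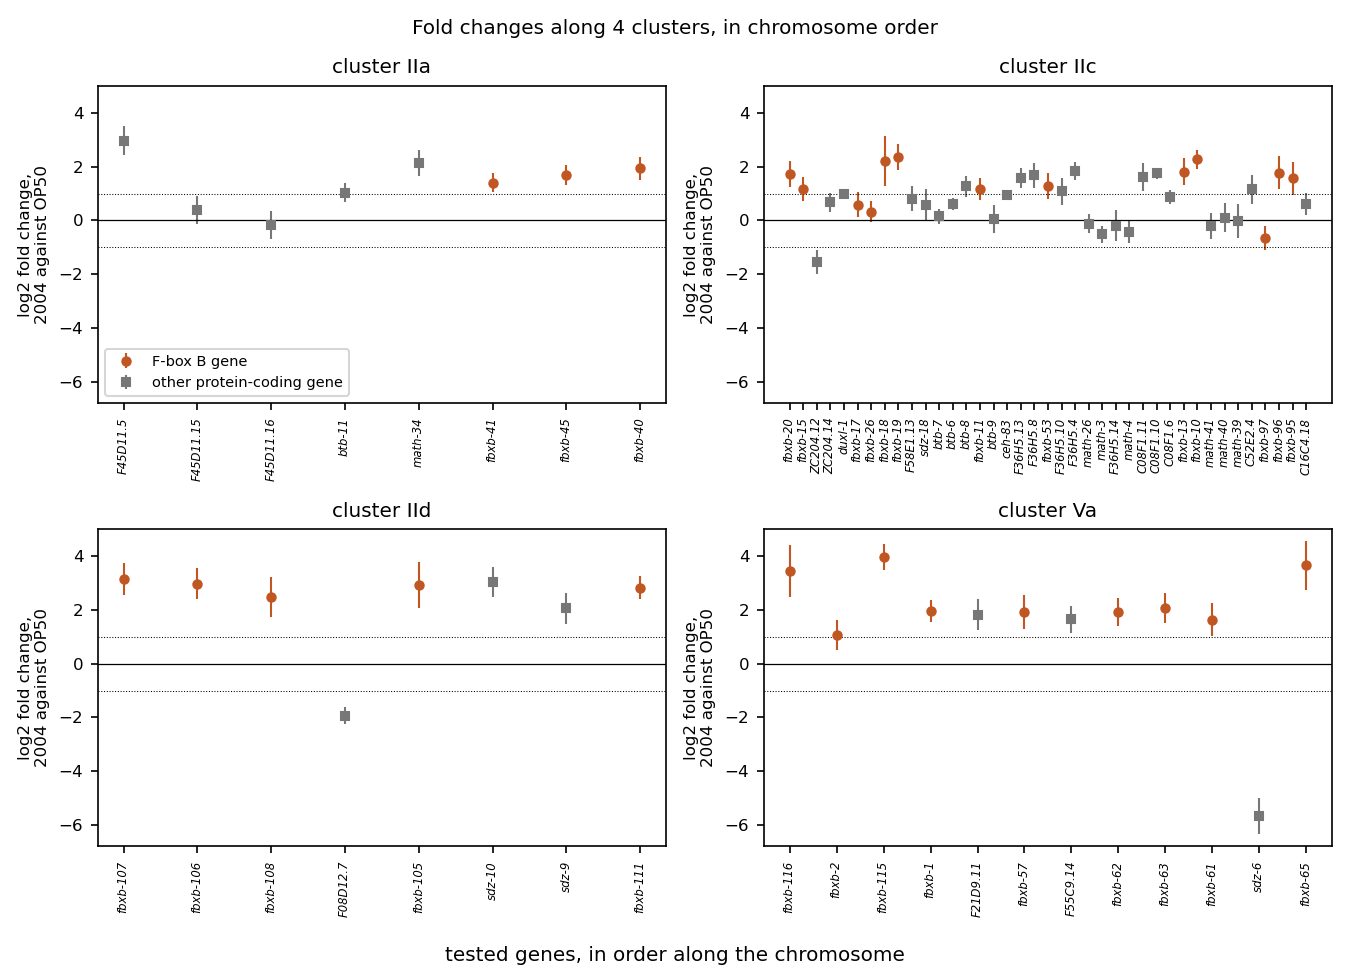
Log2 fold change (2004 against OP50, bars ± standard error) of the tested genes of clusters IIa, IIc, IId and Va in order along the chromosome. Orange circles are F-box B genes, grey squares are other protein-coding genes, and dotted lines mark a fold change of 2. *F08D12.7* in IId (-1.93) and *sdz-6* in Va (-5.67) lie below 0 among F-box B genes above it.

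F-box proteins act with the other subunits and regulators of the SCF ligase. Of 38 genes fixed for the cullins, SKR proteins, RBX proteins, the NEDD8 pathway and the COP9 signalosome, 36 were matched and 34 tested. By edgeR and by DESeq2, 1 was called higher and 0 lower, where edgeR called 7.55% of all tested genes higher and 14.8% lower. At an unadjusted p under 0.05, 8 were higher and 4 lower, and the median log2 fold change was 0.06. The 1 called gene was *skr-21* (K08H2.1, X:13226134-13226664), a SKP1-related gene. It had 3.03 and 3.58 CPM with OP50 and 20.6 and 16.6 CPM with 2004, a log2 fold change of 2.44 ± 0.21 (adjusted p = 2.5e-05, edgeR). The foods did not overlap, and the gene was called under every alternative run. The SKR gene that starts less than 2 kb away, *skr-19*, had 12.3 and 16.2 CPM and then 22.7 and 21.5 CPM (0.59 ± 0.17, adjusted p = 0.0206, edgeR), below the 2-fold threshold.

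The main scaffold and its best-known partners differed by less than 2-fold. *cul-1*, the cullin of the SCF ligase, had 86.2 and 80.7 CPM with OP50 and 140 and 119 CPM with 2004, a log2 fold change of 0.58 ± 0.14 (adjusted p = 0.00865, edgeR). *rbx-1*, the RING subunit that recruits the ubiquitin-conjugating enzyme, went from 277 and 253 CPM to 162 and 197 CPM (-0.61 ± 0.18, adjusted p = 0.0225, edgeR). *skr-1*, a SKP1 homologue, had a log2 fold change of -0.01 ± 0.16 (adjusted p = 0.965, edgeR), whose sign changed with the scaling. The summed level of the 36 genes was 1992 and 2044 CPM with OP50 and 2135 and 2053 CPM with 2004, a ratio of 1.04, beside 3.26 for the F-box B genes.

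**Figure D5:**
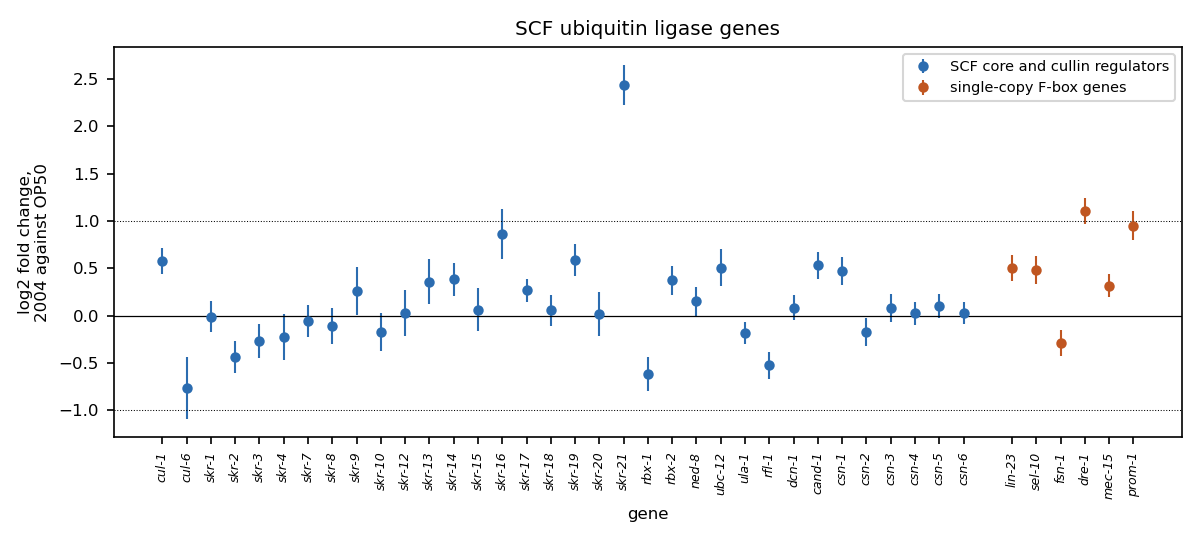
Log2 fold change (2004 against OP50, points with bars ± standard error) of the 34 tested SCF genes (blue) and of 6 F-box genes outside the large classes (orange). Dotted lines mark a fold change of 2. *skr-21* (2.44) is the 1 blue point beyond them.

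F-box genes outside class B did not all follow it. As single-copy F-box genes, 6 were fixed (*lin-23*, *sel-10*, *fsn-1*, *dre-1*, *mec-15* and *prom-1*). Of these, *dre-1*, which acts in developmental timing, was called higher (1.10 ± 0.13, adjusted p = 0.000194, edgeR). Its level was 19.8 and 25.5 CPM with OP50 and 52.7 and 47.8 CPM with 2004. The other 5 lay between -0.29 (*fsn-1*) and 0.95 (*prom-1*). F-box A genes had 3 of 75 tested genes called higher and 18 lower, with a median of -0.33, and F-box C genes had 16 of 36 called higher and 1 lower, with a median of 0.86. The shares over all tested genes were 7.55% higher and 14.8% lower, and 13.2% and 24.5% among those with a mean under 5 CPM. *cul-6*, *skr-3*, *skr-4* and *skr-5* encode parts of an SCF ligase of the intracellular pathogen response, a response to viruses and microsporidia. Of the 11 genes fixed for that response, 4 were tested, namely *cul-6*, *skr-3*, *skr-4* and *rcs-1*. edgeR and DESeq2 called 0 of them, 2 were lower at an unadjusted p under 0.05, and the median was -0.52.

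Some members share their place with other genes, and no source used here says that strand was used in counting. In all, 19 of the 104 genes overlap another annotated gene. *fbxb-103* overlaps *bcmo-2* on the opposite strand, and both were higher on strain 2004 (*bcmo-2* 205 and 324 counts with OP50 and 1069 and 1040 with 2004). *fbxb-24* overlaps *faah-4* on the opposite strand over most of its length, and *faah-4* had a log2 fold change of 0.07 ± 0.12, beside 1.13 ± 0.47 for *fbxb-24*. *fbxb-1*, *fbxb-2*, *fbxb-115* and *fbxb-116* lie within the span of *str-81*, which had at most 9 counts in a library. Reads that fit several similar copies may also be shared among members, and how such reads were counted is not given in the sources used here.

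The counts of single transcripts were less stable than the sums. In *fbxb-53*, 1 of the 2 members with more than 1 listed transcript, the OP50 libraries had 19 and 0 counts for transcript a and 0 and 42 for transcript b. The 2004 libraries split in the same way, with 85 and 0 counts for a and 0 and 61 for b. Fitted on transcripts, 19 members had a transcript called higher, where 4.24% of all 16577 tested transcripts were, and 29 had one with DESeq2. The common dispersion, edgeR's measure of the spread between replicates, was 0.254 over all transcripts and 0.0314 over all genes. For 102 of the 104 members the transcript counts equal the sums.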

How the data were processed

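The authors processed the reads with FastQC 0.11.8, Trim Galore 0.6.4, HISAT2 2.1.0, SAMtools 1.7 and StringTie 2.1.1 (submitters' processing notes) on WBcel235. The table deposited by the authors holds StringTie's estimated counts, as whole numbers without normalization, 1 row per transcript. The annotation release, read length and strand setting are not given in the sources used here. Transcripts were joined to Ensembl release 115 by sequence name (57507 of 57834 matched 1 gene), and counts were summed per gene. Foods were compared by edgeR 4.0.16 (quasi-likelihood) in R 4.3.3 (TMM, no covariates, Benjamini-Hochberg over 12505 genes) on all 4 samples. The standard error was taken from the F statistic. Scripts were tested on simulated data. Libraries of 1 food were not copies of each other, since their chi-square divided by its degrees of freedom was 75.3 for OP50 and 33.4 for 2004.

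Alternatives were DESeq2 1.42.0, limma-voom (limma 3.58.1), other scalings, filters and thresholds, a replicate block, other joining distances, and leaving out each sample on the same genes, where the lone sample is assumed to vary like the others. Members, clusters and lists were chosen with earlier results of these data known. Named were the 10 most abundant members, the most abundant of each cluster, the 5 largest and 5 smallest log2 fold changes at a mean of at least 1 CPM, members below 0, called neighbours with at least 5 CPM, and called SCF genes with *cul-1*, *skr-1* and *rbx-1*. Promoter and protein sequences were not analysed here.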

Additional observations from a re-analysis of the deposited data

How the results depend on the processing

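The members called higher numbered 53, and 40 to 54 over the alternatives other than glmTreat against 2-fold (19) and leaving out a sample (35 to 51, the lowest without 2004 replicate 2). The members called higher were 76.8% of the 69 tested. They were 78.4% of 51 with 10 counts in every sample and 65.8% of 79 with 0.5 CPM in at least 1 sample. With no filter they were 47.1% of 102. Of all tested genes, 7.55%, 6.68%, 7.17% and 4.92% were called higher in these settings, in this order. Over all genes glmTreat called 333 higher and 670 lower, beside 944 and 1851. Under no alternative run was a member called lower. The median of the tested members was 1.64, and leaving out a sample gave 1.39 to 1.98. For the cluster medians, leaving out a sample gave 1.19 to 1.57 in Ia, 2.03 to 2.16 in Ib, 1.39 to 1.77 in IIa, 1.02 to 1.47 in IIb, 0.82 to 2.01 in IIc, 2.65 to 3.25 in IId, 0.48 to 1.79 in IIe, 0.93 to 1.43 in IIIa and 1.61 to 2.43 in Va. Filters that change which members are tested gave Ia 1.17 (10 counts in every sample), Ib 1.29, IIb 1.21 and IIa 3.04 (no filter), IIa 1.81 (0.5 CPM in at least 1 sample) and IIb 0.95 (a mean of at least 0.5 CPM). The clusters numbered 9, and 11 and 9 with joining distances of 20 and 100 kb. Genes between members called higher numbered 14, 5 with glmTreat and 10 to 17 without a sample; 3 to 4 were called lower without a sample. The SCF genes called higher numbered 1 throughout. The sign of *skr-1* (-0.01) turned with DESeq2 and with RLE size factors (both 0.0029), with library size alone (0.041), without OP50 replicate 1 (0.11) and without 2004 replicate 1 (0.11). Of 447 values of the 28 named genes under the alternatives, 427 kept their sign and their call.

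The labels give the foods the same replicate numbers but no pairing, and the deviations of same-numbered samples correlated at -0.13. With 2 samples per food this value cannot show whether same-numbered samples share more than a number, which was not tested. With the number as a replicate block, 49 members were called higher, and on transcripts the replicate block gave 0 members, beside 19 without it and 29 with DESeq2. With the numbers crossed, chosen after seeing the data, 49 members and 948 genes were called higher, beside 923 genes with the block as numbered.

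With 2 samples per food, the spread between replicates rests on 2 differences shared out over all genes. Most members lie near the filter, and differences of members with a few counts were not detectable at this depth.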

Other observations

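Pseudogenes on the same stretches were counted as well. Between the first and last member of the 9 clusters lie 25 pseudogenes of the table, and 6 of them were tested. The genes below were chosen after their values were seen. edgeR called 4 of the 6 higher on strain 2004 and 0 lower, beside 7.55% and 14.8% of all tested genes. Among tested genes with a mean under 5 CPM these shares were 13.2% and 24.5%. *Y63D3A.11*, *F36H5.11*, *ZC204.11* and *C43D7.10* passed the filter only through their 2004 samples, so the filter favoured a rise in them. None was lower at an unadjusted p under 0.05, and DESeq2 called 2 higher and 0 lower.

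In cluster Va, *C43D7.10* had 14 and 12 counts with OP50 and 57 and 43 with 2004, a log2 fold change of 1.90 ± 0.54 (adjusted p = 0.0189, edgeR). *F21D9.6*, in the same cluster, had 34 and 55 counts and then 151 and 85 (1.40 ± 0.42, adjusted p = 0.0229, edgeR). In cluster IIc, *ZC204.11* had 12 and 21 counts and then 40 and 45 (1.37 ± 0.53, adjusted p = 0.0625, edgeR), and *F36H5.11* had 21 and 18 counts and then 39 and 53 (1.21 ± 0.53, adjusted p = 0.0923, edgeR). The foods did not overlap in these 4 genes, as in 37.5% of all tested genes. In *C43D7.10*, *ZC204.11* and *F36H5.11* no OP50 sample reached 0.5 CPM. The filter itself thus placed their 2004 samples above their OP50 samples, and their separation is no result. The other tested pseudogenes, *Y63D3A.11* in Ia and *F36H5.2* in IIc, had log2 fold changes of 1.16 ± 0.59 and -0.61 ± 0.30 and were not called. *C43D7.11* of cluster Va, not tested, had 0 counts in both OP50 libraries and 33 and 15 in the 2004 libraries. Whether these pseudogenes derive from F-box genes is not given by the annotation used.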
